A study of Mus musculus with 9 samples.

Results

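Interferon-stimulated antiviral genes were followed in the colon of 9 mice. The set holds 41 genes taken by symbol from the 27719 genes of the count table, each found on 1 row, and all 41 passed the filter on low counts. They were chosen by their standing as type I interferon-stimulated genes and by high levels of some of them in the treated mice, read here as the DSS + EA mice. Every contrast with the DSS + EA group was therefore used in the choice, and these contrasts are given for the 41 genes as a description, in which the number past the edgeR threshold stands beside that of all genes but supports nothing.

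Total colon RNA of 3 mice per group was turned into PCR-amplified cDNA and read as whole molecules by Oxford Nanopore sequencing, with 1 library per mouse. All mice were C57BL/6J. The control group drank distilled water, and the DSS group drank 2.5% dextran sodium sulfate, which injures the colon epithelium, for 7 days. The DSS + EA group drank the same DSS and also received electroacupuncture (EA), a weak current through needles, at both ST36 points on 5 days, with sessions of 30 minutes (2 Hz, 0.2 mA) that began after 5 days of modeling. Mice of the other 2 groups were held in the frame without current. Library totals ran from 2627695 to 4235576 counts. Levels are given as CPM, counts scaled by the TMM-adjusted library total, and the floor of 3 counts was worth 0.708 to 1.14 CPM of the unadjusted totals. Since reads of PCR copies are not independent molecules, the floor covers counting error only.

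Type I interferons act through the IFNAR1 and IFNAR2 receptor chains, and type III interferons, which act mainly on epithelia, through IFNLR1 and IL10RB. Both receptors signal through the kinases JAK1 and TYK2 to STAT2, which joins IRF9 in the ISGF3 complex. ISGF3 binds the interferon-stimulated response element (ISRE) in the promoters of genes whose products sense viral RNA, block viral translation, replication and budding, or feed back on the pathway.

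The 41 genes lie on 14 chromosomes of the mouse genome (GRCm38 assembly, GENCODE M21), and 40 are annotated as protein coding, while *Mx2* is listed as a polymorphic pseudogene. Several lie side by side. The 4 *Ifit* genes lie within 99.3 kb at chr19:34550694-34650009, *Oas2*, *Oas3*, *Oas1g* and *Oas1a* within 177 kb at chr5:120730333-120907521, *Oasl2* and *Oasl1* at chr5:114896936-114937915, and *Rsad2* and *Cmpk2* within 37.1 kb at chr12:26442746-26479837. *Parp14*, *Dtx3l* and *Parp9* share 140 kb at chr16:35832874-35972605. The coding sequences of *Ifit3* and *Ifit3b* were 99.1% identical and those of *Oas1a* and *Oas1g* 96.8% identical, so that the values of these 4 genes are uncertain where the counting divided reads between copies. *Mx1* and *Mx2* were 75.0% and *Oasl1* and *Oasl2* 63.6% identical. A further limit is that 16 of the 41 genes overlap another annotated gene, among them *Irf9* with *Rnf31* and *Dtx3l* with *Parp9*, and the use of strand in the counting is not given in the sources used here.

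Promoter windows of RefSeq (GRCm38.p6, 250 bases before to 50 after the start) were at hand for 32 of the 41 genes, in 35 windows. The letters GAAANNGAAA, the core of an ISRE, were looked for on both strands (TTTCNNTTTC on the other). They were present in 15 of the 32 genes (46.9%), against 3.99% of all 27025 genes with a window. The letters TTCNNNGAA, the core of a GAS element, were present in 5 of the 32 (15.6%), against 9.55% of all genes. Of the 25 ISRE matches, 21 lay before the start, at a median of -72 bases from it and between -222 and 32, and 1 overlapped a GAS match. The stretches below were chosen to show the element in genes whose values are given later, one ubiquitin-like protein, the tandem *Ifit* and *Oas* copies and a helicase. Capitals mark the ISRE letters, and each stretch is written 5′ to 3′ on the strand of its gene. *Isg15* is at chr4:156200860-156200911 (minus strand), *Ifit1* at chr19:34640770-34640828 (plus), *Ifit3* at chr19:34583358-34583431 and *Ifit3b* at chr19:34607754-34607827 (both plus), *Oas1a* at chr5:120907526-120907560, *Oas1g* at chr5:120887614-120887646 and *Oas3* at chr5:120777710-120777749 (all minus), and *Ddx60* at chr8:61928019-61928086 (plus).
Isg15: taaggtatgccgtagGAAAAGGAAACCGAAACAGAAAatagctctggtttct
Ifit1: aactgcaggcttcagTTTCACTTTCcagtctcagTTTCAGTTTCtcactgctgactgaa
Ifit3: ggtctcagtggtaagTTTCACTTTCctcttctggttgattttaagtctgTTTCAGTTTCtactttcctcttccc
Ifit3b: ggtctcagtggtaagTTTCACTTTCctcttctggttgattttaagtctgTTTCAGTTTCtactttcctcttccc
Oas1a: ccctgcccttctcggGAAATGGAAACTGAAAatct
Oas1g: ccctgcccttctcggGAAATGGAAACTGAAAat
Oas3: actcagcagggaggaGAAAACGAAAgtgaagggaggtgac
Ddx60: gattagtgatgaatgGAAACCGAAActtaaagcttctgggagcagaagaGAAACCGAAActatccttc

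In *Isg15* 3 matches run into each other, *Oas1a* and *Oas1g* carry the same overlapping pair, and *Ifit3* and *Ifit3b* have the same letters over the whole stretch shown. In all, 8 genes held at least 2 matches. No match was found in the windows of 17 genes, among them *Irf7*, *Oasl2* and *Ifi44*, which says only that these letters are not in this window. Of the 15 genes with the letters, 11 were lower with DSS by the test described below, and of the 17 without them also 11. No RefSeq window was used for *Rtp4*, *Oas2*, *Dhx58*, *Usp18*, *Mx2*, *Parp9*, *Parp14*, *Mx1* and *Zbp1*.

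Across the 9 mice, the genes were lowest in the DSS group, intermediate in the control group and highest in the DSS + EA group. Their summed level was 1048, 1539 and 3103 CPM in the control mice, 587, 473 and 820 CPM in the DSS mice and 8186, 6119 and 9754 CPM in the DSS + EA mice. No DSS mouse reached the lowest control mouse, and no control mouse reached the lowest DSS + EA mouse. Group means stood in this order for 39 of the 41 genes, the exceptions being *Stat2* and *Lgals3bp*, and in 18 genes every DSS mouse was below every control mouse and every control mouse below every DSS + EA mouse. Among all 12566 genes tested, 1.93% had this full separation, a background from which nothing is read here, because the choice used the DSS + EA mice. Without *Isg15*, which took up the most counts, the sums had the same order, with 979 to 2720 CPM in the control, 454 to 771 CPM in the DSS and 4924 to 7762 CPM in the DSS + EA mice.

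**Figure D1:**
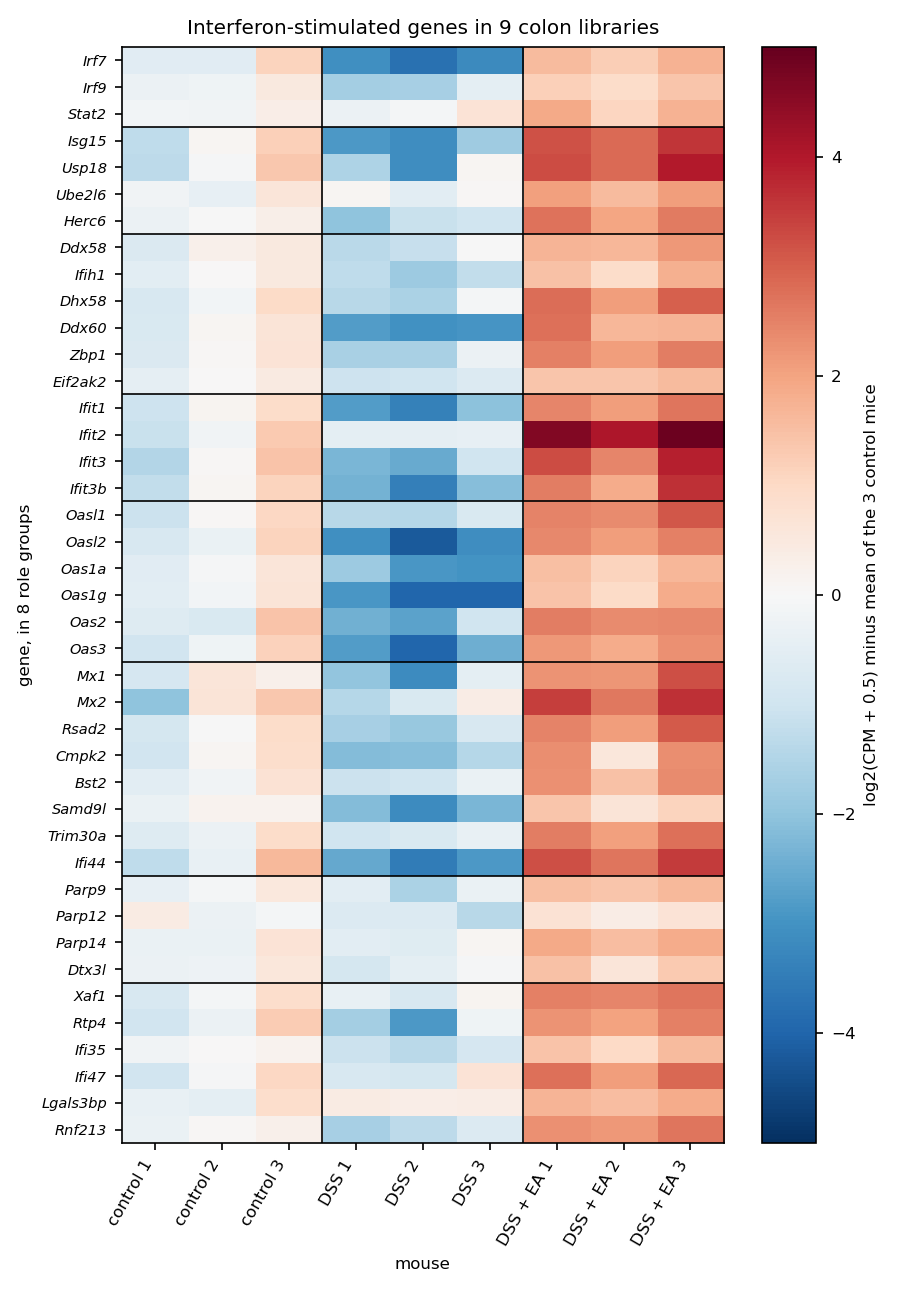
Each row is 1 of the 41 genes, in 8 groups by role, and each column 1 mouse; the colour is log2(CPM + 0.5) minus the mean of the 3 control mice. The DSS columns are mostly blue (below control) and the DSS + EA columns red (above control), while *Stat2*, *Ube2l6* and *Lgals3bp* are pale in the DSS mice.

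The mice of a group also differed from each other, and the genes moved together within a group. Control mouse 3 had the highest control value in 39 of the 41 genes and control mouse 1 the lowest in 35. DSS mouse 3 was the highest of its group in 31 genes, and DSS mouse 2 the lowest in 25. DSS + EA mouse 2 was the lowest of its group in 40 genes and mouse 3 the highest in 33. The median coefficient of variation over the genes was 57.8% over control mice, 40.9% over DSS mice and 24.9% over DSS + EA mice, and the highest mouse was a median of 2.94, 2.23 and 1.67 times the lowest.

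The comparison of the DSS and control groups asks how chemical injury of the colon moved these genes. In the DSS group, 23 of the 41 genes fell (adjusted p under 0.05 in edgeR's quasi-likelihood test, adjusted over all genes tested), 0 rose and 18 did not pass the test. DESeq2 called 25 lower and 0 higher, and at an unadjusted edgeR p under 0.05 the counts were 28 lower and 0 higher. The background was 19.5% of all genes tested called lower and 21.5% called higher. The median log2 fold change of the 41 genes was -1.44, between -4.01 and 0.23 with *Oas3* set to the bound given below, and that of all genes tested was 0.02; it was below 0 in 39 of the 41 genes, against 49.2% of all genes. All DSS mice lay below all control mice in 20 genes, against 25.9% of all genes, and 12 genes passed the rule of the study's methods (log2 fold change beyond 2.5 and unadjusted P under 0.01) in the lower direction, against 3.57%. This contrast was not the one named in the choice but shares the DSS mice with it, so the counts are not independent of that choice. Of the 23 genes, 15 also had an adjusted p under 0.05 in each fit that left out 1 mouse and in every other fit run: *Irf7*, *Isg15*, *Herc6*, *Ifih1*, *Ddx60*, *Eif2ak2*, *Ifit1*, *Oasl2*, *Oas1a*, *Oas1g*, *Oas3*, *Samd9l*, *Ifi44*, *Ifi35* and *Rnf213*. *Eif2ak2*, with a log2 fold change of -0.95, did not pass the alternative rule that also asked for a log2 fold change beyond 1. In whole colon tissue, fewer cells of a type and less RNA per cell cannot be told apart.

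**Figure D2:**
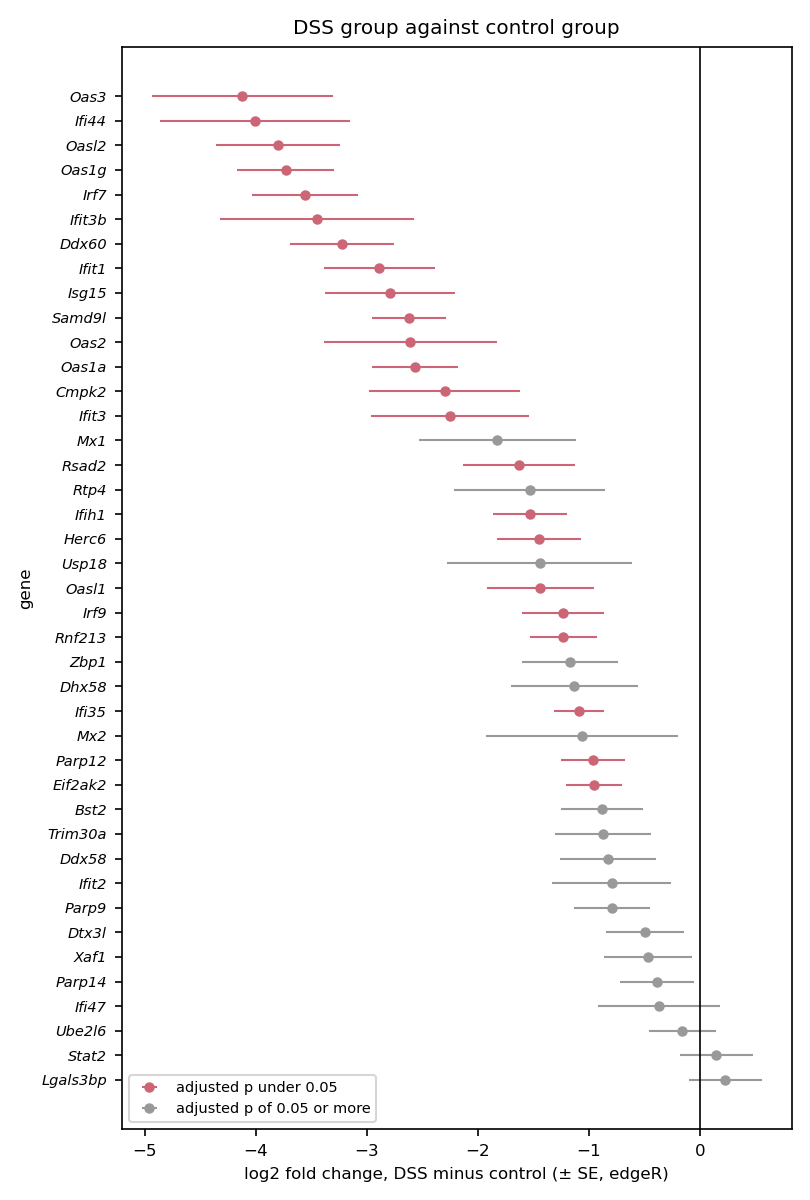
Log2 fold change of each of the 41 genes between the DSS and control groups (x axis, DSS minus control), with its standard error from the edgeR fit, ordered from the lowest to the highest. Points for 39 genes lie left of 0; the 23 coloured ones have an adjusted p under 0.05, and *Stat2* and *Lgals3bp* lie right of 0. The point of *Oas3* is the fitted value, which depends on the prior count, since all its DSS libraries held 3 counts or fewer.

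Among the transcription factors, *Irf7*, which amplifies interferon production, had 153, 151 and 490 CPM in the control mice, 26.7, 16.3 and 24.3 CPM in the DSS mice and 678, 533 and 744 CPM in the DSS + EA mice. The 3 groups did not overlap, and control mouse 3 stood well above the other two control mice. *Irf7* fell 11.8-fold with DSS (log2 fold change -3.56, standard error 0.48, adjusted p = 0.0005 in edgeR). *Irf9*, the DNA-binding part of ISGF3, had 20.3, 21.6 and 35.3 CPM in the control mice, 7.40, 7.60 and 17.8 CPM in the DSS mice and 56.9, 47.4 and 66.0 CPM in the DSS + EA mice. It fell 2.36-fold with DSS (log2 fold change -1.24, standard error 0.37, adjusted p = 0.0233 in edgeR), and again no 2 groups overlapped. *Stat2*, which brings the activation domain to ISGF3, had 15.2, 15.0 and 21.5 CPM in the control mice, 13.8, 15.9 and 27.5 CPM in the DSS mice and 64.8, 35.9 and 57.1 CPM in the DSS + EA mice. Here the control and DSS mice overlapped (log2 fold change 0.15, standard error 0.33, adjusted p = 0.745 in edgeR), and the DSS + EA mice were above both.

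ISG15 is a ubiquitin-like protein joined to other proteins by enzymes that include UBE2L6 and, in the mouse, HERC6, and removed by USP18, which also damps receptor signalling. *Isg15* had 69.1, 181 and 383 CPM in the control mice, 22.8, 19.3 and 49.0 CPM in the DSS mice and 1540, 1196 and 1993 CPM in the DSS + EA mice. The groups did not overlap, and *Isg15* fell 6.94-fold with DSS (log2 fold change -2.80, standard error 0.59, adjusted p = 0.0045 in edgeR). *Usp18* had 5.84, 14.6 and 39.9 CPM in the control mice, 4.83, 1.30 and 16.2 CPM in the DSS mice and 150, 111 and 248 CPM in the DSS + EA mice. DSS mouse 3 lay above the middle control mouse, and the difference did not pass the test (log2 fold change -1.44, standard error 0.83, adjusted p = 0.190 in edgeR). *Herc6* fell (log2 fold change -1.45, adjusted p = 0.0129 in edgeR), and *Ube2l6* did not pass the test, with 26.9 to 54.0 CPM in the control and 24.8 to 38.3 CPM in the DSS mice.

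The 6 nucleic acid sensors all had log2 fold changes below 0 with DSS, and 3 of them passed the test. *Ifih1*, which encodes MDA5, a sensor of long viral RNA, had 16.3, 23.6 and 33.3 CPM in the control mice, 9.33, 6.30 and 9.67 CPM in the DSS mice and 65.1, 45.2 and 80.9 CPM in the DSS + EA mice. The groups did not overlap and *Ifih1* fell 2.89-fold with DSS (log2 fold change -1.53, standard error 0.34, adjusted p = 0.0056 in edgeR). *Ddx58*, which encodes RIG-I, a sensor of viral RNA ends, had 6.35, 12.6 and 14.9 CPM in the control mice, 3.86, 4.56 and 10.6 CPM in the DSS mice and 36.2, 34.4 and 49.8 CPM in the DSS + EA mice. Control and DSS mice overlapped, and the log2 fold change of -0.83 (standard error 0.43) had an adjusted p of 0.153 in edgeR. *Zbp1*, a sensor of Z-form nucleic acids that can start cell death, had 34.3, 58.8 and 92.0 CPM in the control mice, 18.0, 18.3 and 45.9 CPM in the DSS mice and 327, 245 and 335 CPM in the DSS + EA mice. Its log2 fold change of -1.17 (standard error 0.43) missed the threshold at an adjusted p of 0.0513 in edgeR, with DSS mouse 3 inside the control range. Of the remaining sensors, the helicase gene *Ddx60* fell 9.33-fold, from 14.5 to 39.9 CPM in the control to 2.61 to 3.22 CPM in the DSS mice, and *Eif2ak2*, which encodes the RNA-activated kinase PKR, fell 1.94-fold. *Dhx58* did not pass the test (log2 fold change -1.13).

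IFIT proteins bind viral RNA and hold back its translation. *Ifit1* had 62.8, 142 and 249 CPM in the control mice, 18.3, 12.2 and 30.9 CPM in the DSS mice and 719, 557 and 834 CPM in the DSS + EA mice. The groups did not overlap, and *Ifit1* fell 7.41-fold with DSS (log2 fold change -2.89, standard error 0.50, adjusted p = 0.0017 in edgeR). *Ifit3b*, whose reads may have been divided with *Ifit3*, had 2.80, 7.65 and 16.1 CPM in the control mice, 0.965, 0.217 and 1.25 CPM in the DSS mice and 44.4, 27.3 and 95.5 CPM in the DSS + EA mice. It was near the floor in all DSS mice and fell (log2 fold change -3.45, standard error 0.87, adjusted p = 0.0112 in edgeR). *Ifit3* also fell (log2 fold change -2.25, adjusted p = 0.0287 in edgeR), whereas *Ifit2* had 7.72 to 8.11 CPM in the DSS mice, inside the control range of 4.83 to 28.0 CPM, and did not pass the test.

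The OAS family was lower throughout. OAS enzymes make oligoadenylates that activate RNase L, which cuts RNA, and OASL1 and OASL2 are relatives of these enzymes. All 6 genes fell with DSS, their median log2 fold change being -3.17, or -3.01 with *Oas3* at its bound, and in 5 of the 6 every DSS mouse was below every control mouse, while in *Oasl1* 1 DSS mouse lay in the control range. *Oas1a* had 110, 157 and 249 CPM in the control mice, 45.4, 21.5 and 20.3 CPM in the DSS mice and 459, 351 and 516 CPM in the DSS + EA mice. It fell 5.93-fold (log2 fold change -2.57, standard error 0.39, adjusted p = 0.0009 in edgeR), and *Oas1g*, with which it may share reads, fell 13.3-fold (adjusted p = 0.0002). *Oasl2* had 23.1, 32.9 and 90.1 CPM in the control mice, 4.50, 1.74 and 4.37 CPM in the DSS mice and 219, 176 and 236 CPM in the DSS + EA mice. No groups overlapped, and *Oasl2* fell by 3.80 on the log2 scale (standard error 0.56, adjusted p = 0.0007 in edgeR). *Oas3* had 3.56, 6.32 and 17.2 CPM in the control mice, 35.3, 28.4 and 38.4 CPM in the DSS + EA mice, and 2, 0 and 3 counts in the DSS mice. With all DSS libraries at or under the floor, *Oas3* was at least 10.6-fold lower with DSS, against a floor of 3 counts per library (adjusted p = 0.0033 in edgeR).

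Among the effectors, 4 of 8 fell. *Ifi44*, a cytoplasmic protein of the interferon response, had 3.81, 7.65 and 31.8 CPM in the control mice, 1.29, 0.435 and 0.936 CPM in the DSS mice and 96.2, 66.1 and 116 CPM in the DSS + EA mice. It fell with DSS (log2 fold change -4.01, standard error 0.85, adjusted p = 0.0049 in edgeR), with control mouse 3 more than 4 times control mouse 2; without control mouse 3 the log2 fold change was -2.72, and it was still called. *Rsad2*, which encodes viperin, an enzyme that makes a chain-terminating nucleotide, and its neighbour *Cmpk2*, which encodes a mitochondrial nucleotide kinase, both fell (log2 fold changes -1.63 and -2.30, adjusted p = 0.0267 and 0.022 in edgeR). *Samd9l*, a restriction factor of poxviruses, fell from 24.4 to 34.9 CPM in the control to 3.04 to 6.43 CPM in the DSS mice. The dynamin-like GTPase genes *Mx1* and *Mx2*, the virion tether gene *Bst2* and the ubiquitin ligase gene *Trim30a* did not pass the test, with log2 fold changes between -1.82 and -0.87. C57BL/6 laboratory mice are known to carry an *Mx1* allele that makes no working protein.

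The 4 genes for PARP9, PARP12, PARP14 and DTX3L, proteins of ADP-ribosylation and ubiquitylation, moved least of the role groups with more than 3 genes, with a median log2 fold change of -0.64. *Parp12* fell (log2 fold change -0.96, adjusted p = 0.0226 in edgeR), and the other three did not pass the test. Of the remaining 6 genes, *Ifi35* and *Rnf213*, the latter a large ubiquitin ligase gene, fell 2.13-fold and 2.35-fold, while *Xaf1*, *Rtp4* and the immunity-related GTPase gene *Ifi47* did not pass the test. *Lgals3bp*, which encodes a secreted galectin-binding glycoprotein, had 67.9, 62.5 and 163 CPM in the control mice, 119, 110 and 113 CPM in the DSS mice and 292, 256 and 322 CPM in the DSS + EA mice. The DSS mice lay inside the control range, between control mouse 3 and the other two (log2 fold change 0.23, standard error 0.33, adjusted p = 0.610 in edgeR). Without control mouse 3 the log2 fold change was 0.78, and *Lgals3bp* was then the 1 gene called higher.

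**Figure D3:**
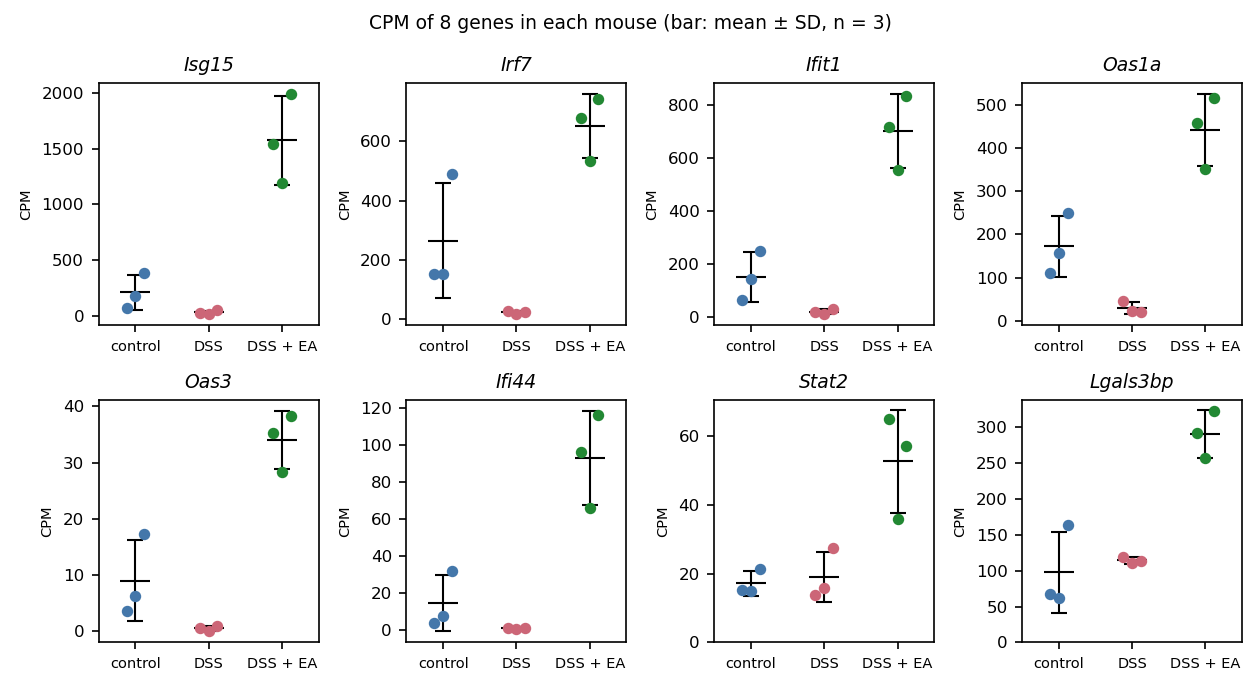
CPM (y axis, linear, one scale per gene) of 8 of the genes in each mouse, with the mean and SD of 3 mice per group. In *Isg15*, *Irf7*, *Ifit1*, *Oas1a*, *Oas3* and *Ifi44* the DSS mice lie below and the DSS + EA mice above all control mice, and in *Stat2* and *Lgals3bp* the DSS mice overlap the control mice.

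The DSS + EA mice stood above the DSS mice in every one of the 41 genes, with no overlap between the 2 groups in any of them. The median log2 fold change was 3.73, between 1.35 for *Lgals3bp* and 6.73 for *Ifi44*, beside a median of -0.02 over all genes tested. After *Ifi44*, the largest log2 fold changes were those of *Ifit3b* (6.15), *Oasl2* (5.92) and *Isg15* (5.70), leaving aside *Oas3*, whose DSS libraries held 3 counts or fewer. The fold of *Oas3* is a bound, at least 40.0-fold above the DSS group, and its place in this order is not known. By role, the medians were 5.13 for the IFIT genes, 4.95 for the OAS family, 4.27 for the ISG15 system, 4.07 for the effectors, 3.20 for the sensors, 2.83 for the remaining 6 genes, 2.38 for the transcription factors and 1.88 for the PARP and DTX3L genes. All 41 passed the edgeR threshold as higher, where 17.2% of all genes tested did, and 24.2% of all genes had no overlap in this direction. The rule of the study's methods called 31 of the 41, against 2.91% of all genes. These counts follow in part from how the genes were picked and nothing is read from them.

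The DSS + EA mice also stood above the control mice. The median log2 fold change was 2.05, from 0.58 for *Parp12* to 4.30 for *Ifit2*, beside 0.00 over all genes tested, and 39 of the 41 genes had no overlap between the groups, the exceptions being *Cmpk2* and *Parp12*. *Ifit2* went from 4.83, 9.64 and 28.0 CPM in the control mice to 287, 188 and 347 CPM in the DSS + EA mice, although its DSS and control mice overlapped. The edgeR threshold was passed by 27 genes, against 3% of all genes tested called higher, and the background without overlap was 18% and that of the study's rule 1.74%, which 10 of the 41 passed. As in the contrast with the DSS mice, these counts rest on values that the choice used, and nothing is read from them. The number called rested on few mice: it was 4 without control mouse 1, 3 without control mouse 2, 9 without DSS + EA mouse 1 and 3 without DSS + EA mouse 3. The 3 comparisons are not independent, since each shares the mice of 1 group with each of the others.

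The levels of marker genes of colon cell types also differed between the groups. Markers of colon epithelium, among them *Epcam*, *Cdh1* and *Vil1*, were present in the libraries of all 3 groups, with a summed level of 14707 to 31543 CPM in the control, 2641 to 12106 CPM in the DSS and 11377 to 18453 CPM in the DSS + EA mice. With DSS, 6 of the 10 fell in edgeR, and between the DSS + EA and control groups 0 of 10 passed the test. Neutrophil markers summed to 22.6 to 159 CPM in the control, 4534 to 27369 CPM in the DSS and 1197 to 1587 CPM in the DSS + EA mice, with all 8 tested of 10 higher with DSS. Macrophage and monocyte markers summed to 254 to 313, 881 to 1717 and 550 to 745 CPM, with 8 of 10 higher with DSS and 2 of 10 higher in the DSS + EA than in the control group. Both of these lists were thus highest in the DSS mice, where the 41 genes were lowest. T and NK cell markers summed to 13.6 to 26.4, 12.9 to 37.1 and 40.7 to 43.5 CPM, with *Trac* not used here. Of 6 tested, 1 was called lower with DSS and 1 higher in the DSS + EA than in the DSS group. Both calls were *Nkg7* (log2 fold changes -1.42 and 2.42), which had 2, 9 and 6 counts in the DSS mice. Between the DSS + EA and control groups 0 of 6 were called, and 5 of 6 had no overlap above control, beside 18% of all genes. The B and plasma cell list summed to 1740 to 3051, 335 to 768 and 538 to 1014 CPM. In the control mice *Jchain* alone had a mean of 1988 CPM. With DSS, 1 of the 9 genes of this list that were tested rose and 2 fell. Fibroblast and smooth muscle markers summed to 2695 to 3165, 5364 to 8417 and 3105 to 3164 CPM, and with DSS 6 of 10 rose and 3 fell. Beside these counts, 21.5% of all genes tested rose and 19.5% fell with DSS. The list for plasmacytoid dendritic cells, which are strong interferon producers, includes *Bst2*, 1 of the 41 genes. It summed to 3690 to 4420 CPM in the control, 208 to 660 CPM in the DSS and 2457 to 3157 CPM in the DSS + EA mice. *Klk1*, with a mean of 3961 CPM in the control mice, makes up most of the sum in the control and DSS + EA mice. The sum is therefore not read as a level of these cells. Of the 6 genes tested, *Klk1* fell and *Tcf4* rose with DSS (log2 fold changes -4.21 and 1.32, adjusted p = 0.0035 and 0.00597 in edgeR), *Tcf4* was lower and *Klk1* higher in the DSS + EA than in the DSS group, and *Il3ra* did not pass the test with DSS (log2 fold change 1.57). The defining gene *Siglech* had 2, 3 and 2 counts in the control, 0, 0 and 0 in the DSS and 2, 1 and 6 in the DSS + EA mice. The part of these cell types in the levels of the 41 genes was not tested.

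The DSS + EA libraries, above all 2 and 3, stood apart by genes of pancreatic acinar cells, 12 digestive enzyme and cofactor genes whose sum was 46345 CPM in mouse 2 and 20166 CPM in mouse 3, against 684 CPM in mouse 1, 374 to 963 CPM in the control and 43.1 to 104 CPM in the DSS mice. The control sum was almost all *Cela1* and *Clps*; the other 10 genes summed to 462 CPM in DSS + EA mouse 1, 43333 CPM in mouse 2 and 17886 CPM in mouse 3, against 0 to 2.68 CPM in the control and 0.652 to 6.11 CPM in the DSS mice. All 3 DSS + EA libraries thus carried acinar RNA, and mouse 1 the least of it. Mouse 1 had a summed level of the 41 genes of 8186 CPM, between those of the other two mice of its group, and the part of the acinar RNA in the other results was not tested. Without DSS + EA mice 2 and 3, a fit chosen after seeing the data, in which the lone DSS + EA mouse is assumed to vary like the other groups, 22 of the 41 genes were lower with DSS, 36 were higher in the DSS + EA mouse than in the DSS group, and 2 were higher than in the control group.

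**Figure D4:**
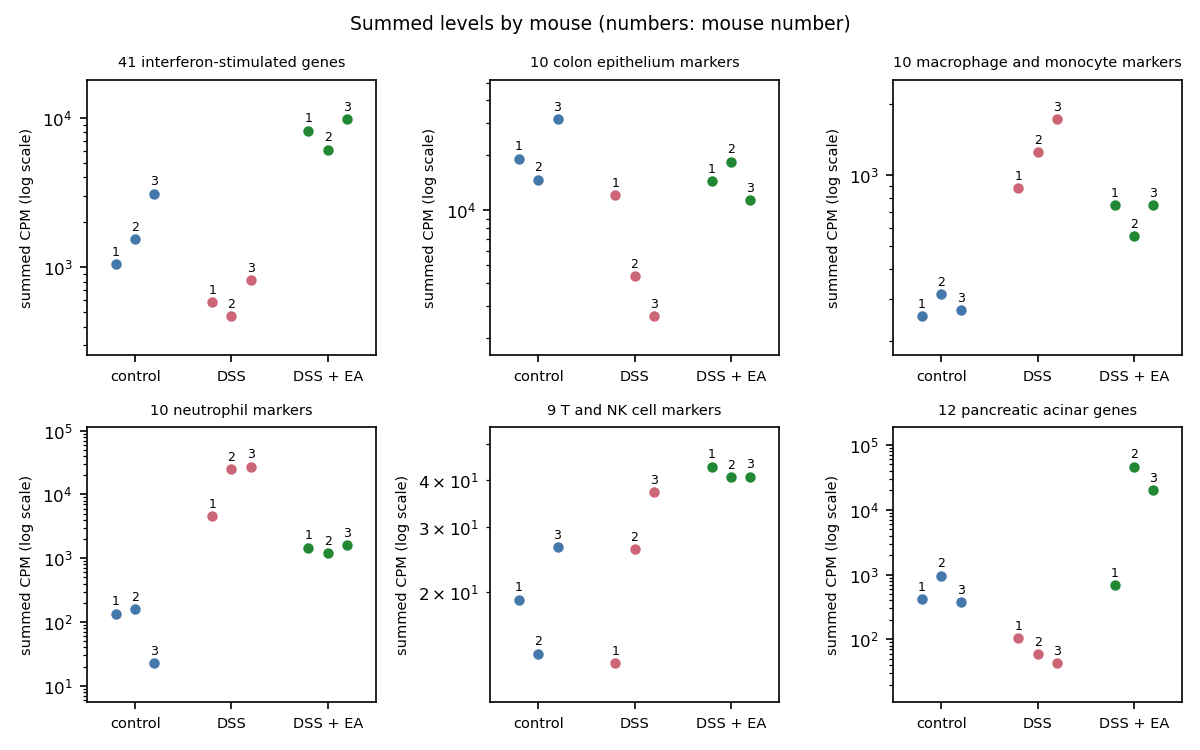
Summed CPM (log scale) in each mouse, marked by its number, of the 41 genes and of 5 lists of cell type markers. The 41 genes are lowest in the DSS mice and highest in the DSS + EA mice, the neutrophil and macrophage lists are highest in the DSS mice, and the pancreatic acinar list is high in DSS + EA mice 2 and 3, while the sum of mouse 1 lies within that of the control mice because *Cela1* and *Clps* make up nearly all of the control sum.

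Other genes of the interferon pathway, outside the 41, were tested in all 3 comparisons. Their lists were chosen with earlier results of these data known, so their calls and p-values are not independent of that choice. Beside the counts of each list, 21.5% of all genes tested rose and 19.5% fell with DSS. Between the DSS + EA and DSS groups these shares were 17.2% higher and 18.3% lower, and between the DSS + EA and control groups 3% and 0.637%. The interferons themselves were at the limit of detection. None of the 11 ligand genes passed the filter on low counts. *Ifnl3*, which encodes a type III interferon, had 3, 1 and 6 counts after DSS with EA and 0 in the other 6 mice, and *Ifnl2* had 1, 2 and 2 counts there, 1 count in 1 control mouse and 0 in the DSS mice. *Ifnb1* had 2 counts in DSS + EA mouse 1 and *Ifng* 3 and 1 counts in DSS + EA mice 1 and 2 and 1 count in DSS mouse 2. *Ifna1*, *Ifna2*, *Ifna4*, *Ifna5*, *Ifne*, *Ifnk* and *Ifnz* had 0 counts in all 9 mice, which allows up to 0.708 to 1.14 CPM per library. No ligand was tested, and most of these counts lie at or under the floor of 3 counts.

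The receptors and kinases had calls in both directions, and with so few genes nothing about the list is read from the counts. Of 8 tested, 3 rose and 2 fell with DSS, 1 was higher and 3 lower in the DSS + EA than in the DSS group, and 0 were called between the DSS + EA and control groups, where the log2 fold changes lay between -0.64 and 0.21. *Ifnar1*, a chain of the type I receptor, had 9.91, 11.0 and 13.0 CPM in the control, 17.1, 35.2 and 58.7 CPM in the DSS and 13.7, 14.2 and 9.83 CPM in the DSS + EA mice. It rose with DSS (log2 fold change 1.71, standard error 0.40, adjusted p = 0.00739 in edgeR) and was lower in the DSS + EA than in the DSS group (log2 fold change -1.56, adjusted p = 0.0137). *Ifnar2* followed the same directions (log2 fold changes 2.14 and -2.28), but with 9.33, 89.5 and 154 CPM in the DSS mice it rested on 2 of the 3. The kinase gene *Jak2* also rose with DSS (log2 fold change 1.58) and was lower in the DSS + EA group (-1.77). *Tyk2*, the kinase gene shared by the type I and III receptors, had 15.2, 14.6 and 18.8 CPM in the control, 8.36, 7.60 and 10.6 CPM in the DSS and 16.7, 13.4 and 19.0 CPM in the DSS + EA mice, and so fell with DSS (log2 fold change -0.87, adjusted p = 0.0168 in edgeR) and was higher in the DSS + EA than in the DSS group (0.89, adjusted p = 0.0178). *Ifnlr1*, the type III receptor chain, had at most 3.22 CPM and was not tested.

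Inducers and sensors outside the 41 also had calls in both directions, from which nothing about the list is read. Of 11 tested, 4 rose and 3 fell with DSS, 4 were above and 1 below the DSS group in the DSS + EA mice, and 1 was higher than in the control group. *Mavs*, the adaptor through which RIG-I and MDA5 signal, had 13.7, 19.6 and 13.8 CPM in the control, 6.11, 4.78 and 5.62 CPM in the DSS and 18.9, 14.9 and 14.0 CPM in the DSS + EA mice. It fell with DSS (log2 fold change -1.51, standard error 0.26, adjusted p = 0.00158 in edgeR) and was higher in the DSS + EA group by 1.54 (adjusted p = 0.00227), as *Irf3*, the transcription factor downstream of it, was lower with DSS by the same test (log2 fold change -1.22). *Tmem173*, which encodes STING, the adaptor of DNA sensing, rose with DSS (log2 fold change 2.17) and was also above control in the DSS + EA group (1.71, adjusted p = 0.0171 in edgeR).

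Of 11 regulators tested, 2 rose and 5 fell with DSS, 7 stood above and 2 below the DSS group in the DSS + EA mice, and 6 were higher and 0 lower than in the control group. *Socs3*, a feedback inhibitor of JAK signalling, and *Stat3*, which carries signals of IL-6 type cytokines, were highest in the DSS mice. *Socs3* had 17.5, 18.3 and 11.5 CPM in the control, 185, 445 and 359 CPM in the DSS and 159, 52.3 and 109 CPM in the DSS + EA mice, and *Stat3* had log2 fold changes of 1.94 with DSS and -1.52 between the DSS + EA and DSS groups. *Adar*, which edits RNA, fell with DSS by 0.99 on the log2 scale and was above control by 1.31 in the DSS + EA group.

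In a list of 73 further interferon-stimulated genes, 65 were tested. With DSS, 17 rose and 20 fell, or 26.2% and 30.8%, beside 21.5% and 19.5% of all genes. In the DSS + EA group 47 were higher and 4 lower than in the DSS group, and 36 were higher and 0 lower than in the control group. *Ifitm1*, *Ifitm2* and *Ifitm3*, which encode membrane proteins that restrict virus entry, rose with DSS (log2 fold changes 4.88, 2.74 and 3.19, adjusted p = 1.83e-05, 0.000204 and 6.15e-05 in edgeR), in contrast to the 41 genes. *Ifitm3* had 135, 134 and 163 CPM in the control, 851, 1379 and 1725 CPM in the DSS and 833, 821 and 1114 CPM in the DSS + EA mice, where the DSS and DSS + EA mice overlapped. *Apol9a*, an apolipoprotein L gene, had 11.4, 19.6 and 62.1 CPM in the control, 0.643, 0.435 and 0.624 CPM in the DSS and 99.8, 88.1 and 131 CPM in the DSS + EA mice, and fell with DSS (adjusted p = 0.00042 in edgeR). With 2 counts in every DSS library, it was at least 36.5-fold lower than in the control mice. *Iigp1* and *Tgtp1*, GTPases of resistance to intracellular parasites, were above control in the DSS + EA group by 4.54 and 4.14 on the log2 scale (adjusted p = 0.00286 and 0.00271 in edgeR), and unlike any of the 41 genes both also rose with DSS (2.12 and 1.60).

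Over all these lists, 95 genes were tested. With DSS, 26 rose and 30 fell, or 27.4% and 31.6%, beside 21.5% and 19.5% of all genes. In the DSS + EA group 59 were higher than in the DSS group, or 62.1% beside 17.2% of all genes, and 10 were lower, or 10.5% beside 18.3%. Against the control group 43 were higher, or 45.3% beside 3%, and 0 were lower, beside 0.637%, with 0 of them lower in DESeq2. Without control mouse 1, 17 rose with DSS, and the number below the DSS group in the DSS + EA mice was 6 without DSS mouse 2, 5 without DSS + EA mouse 3 and 1 without DSS + EA mice 2 and 3. The number above control was 8 without control mouse 1, 12 without control mouse 2, 22 without DSS + EA mouse 1, 10 without DSS + EA mouse 3 and 6 without DSS + EA mice 2 and 3.

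**Figure D5:**
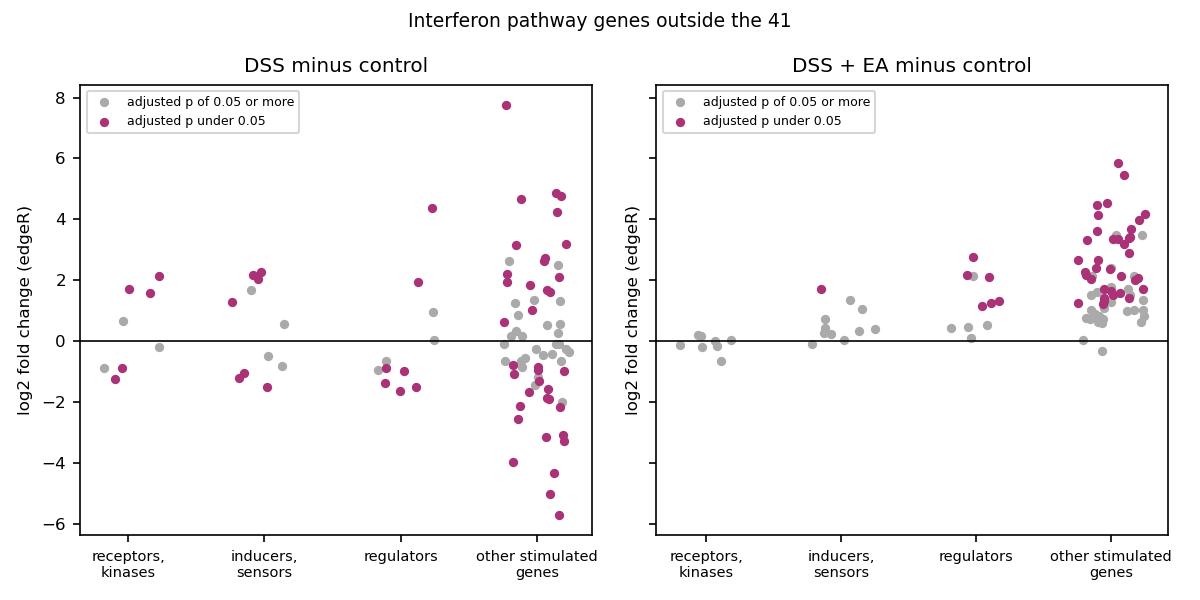
Log2 fold changes (y axis, edgeR) of the interferon pathway genes outside the 41, each point 1 gene, by list, for DSS minus control (left) and DSS + EA minus control (right); coloured points have an adjusted p under 0.05. Coloured points lie on both sides of 0 on the left, 26 above and 30 below, and only above 0 on the right, 43 of 95. Values of genes with 3 counts or fewer in every library of a group are fitted and depend on the prior count.

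Among the genes outside the 41 whose levels most resembled the mean of the 41 over the 9 mice were *Irgm1* (Pearson's r of log2 levels 0.995), *Irgm2* (0.992), a locus with the identifier ONT.2166 found in the Nanopore reads (0.989) and *Trim5* (0.987). The 9 points fall into 3 groups and share the library depth, so these values are a description. Among the 41 genes themselves, *Rsad2* had the highest r with the mean of the set (0.998), and *Parp12* (0.797) and *Lgals3bp* (0.809) the lowest.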

How the data were processed

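The authors deposited a table of raw read counts per gene for 9 mouse colon libraries. The build mm10 comes from the submitters' processing notes; the aligner, counting tool and use of strand are not given in the sources used here. Of 27733 lines, 14 held no counts and 27719 genes were used. Groups and replicate numbers came from the labels, which give no batch. Tests used edgeR 4.0.16 in R 4.3.3 (filterByExpr, TMM, prior count 0.125, quasi-likelihood F test) in 1 fit over the 9 libraries, which kept 12566 genes; calls have a Benjamini-Hochberg adjusted p under 0.05 over all of these. Standard errors are the log2 fold change divided by the root of F. With 3 mice against 3, an exact permutation p cannot go below 0.1. The functions were tested on simulated DSS against control counts for 12566 genes, of which 12175 stayed in the fit. There edgeR recovered 96% of 100 genes changed by a log2 fold of 2 and 98% of 100 changed by 3, and called 13 unchanged genes. Every simulated gene had the same dispersion, and only genes above a minimum mean count were changed. The median coefficient of variation of the 41 genes was 57.8% over control and 40.9% over DSS mice. The simulation therefore checks the functions and does not give the power or the false calls in these data. Alternatives were DESeq2 1.42.0, RLE or no TMM scaling, other filters on low counts, a log2 fold change beyond 1 as well, only the 2 groups compared, the replicate number as a block, and each mouse left out. Promoter windows are RefSeq's, positions GENCODE M21's. Python 3.11.15 with pandas 2.3.3, Biopython 1.88 and matplotlib 3.10.9 served for annotation and figures. The 41 genes and all lists were chosen with earlier results of these data known. Values of every mouse are given for the genes with the 3 largest changes in each direction of the DSS contrasts, the 4 of highest mean CPM and the main signalling and sensor genes; outside the 41, ligands, receptors and the smallest p-values of each list were named, with *Irf3*, *Apol9b*, *Ifitm6*, *Ms4a4c* and *Gm4951* added after their values were seen. Not every gene that met these rules is reported here. P-values set a group difference against the spread between these mice, as estimated in the fit.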

Additional observations from a re-analysis of the deposited data

How the results depend on the processing

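Under the settings that left out no mouse of the groups compared, the counts of calls stayed within 1.5 times those reported, except for 1 count. The number of all genes called between the DSS + EA and control groups was 457. It was 702 with DESeq2, 1149 with only the 2 groups compared and 772 without DSS mouse 1, which is in neither group. Same-numbered mice are different animals and their deviations did not go together (correlations between -0.160 and 0.105 over 9 pairs, with the best match of the same number in 2 of 18 cases). With the replicate block, 27 of the 41 genes were lower with DSS, 41 were higher in the DSS + EA than in the DSS group and 32 than in the control group, and 4543, 3829 and 364 of all genes were called in these comparisons. Leaving out each mouse in turn gave 16 to 28 of the 41 genes lower and 0 to 1 higher with DSS, 41 to 41 higher in the DSS + EA than in the DSS group and 3 to 32 than in the control group. For the other pathway genes it gave 17 to 31 higher with DSS, 5 to 15 lower in the DSS + EA than in the DSS group and 8 to 56 higher than in the control group, and for all genes 110 to 772 calls between the DSS + EA and control groups. The 1 gene then higher with DSS was *Lgals3bp*, without control mouse 3. Without DSS + EA mice 2 and 3, the other pathway genes had 39 higher and 1 lower than in the DSS group and 6 higher than in the control group, all genes had 807 and 54 calls, and 2 of the 41 genes were higher than in the control group. The cause of these shifts was not tested. Over all settings, a single gene of the 41 lost its call between the DSS and control groups 23 times and gained one 18 times. Leaving out 1 mouse turned the sign of the log2 fold change between the DSS and control groups in 7 genes that did not pass the test. It ran from -0.20 to 0.30 for *Stat2*, from -0.38 to 0.17 for *Ube2l6*, from -1.26 to 0.12 for *Ifit2*, from -0.64 to 0.0021 for *Parp14*, from -0.83 to 0.083 for *Xaf1*, from -1.07 to 0.29 for *Ifi47* and from -0.047 to 0.78 for *Lgals3bp*.

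The comparisons rest on 3 mice per group, libraries hold at most 4235576 counts, and the interferon genes stayed under the filter. Counts do not tell near-identical copies apart, and no measurement of protein or of separate cells enters here.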

Other observations

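Among the further interferon-stimulated genes, some with large changes, chosen after their values were seen, belong to small families. Because of this choice no p-values are given for them, and their values are a description. *Apol9b*, next to *Apol9a* in symbol, was lower with DSS. With 3 counts or fewer in every DSS library, it was at least 22.6-fold lower than in the control mice and at least 63.5-fold lower than in the DSS + EA mice. *Ifitm6*, another member of the *Ifitm* family, moved the other way, by 7.76 on the log2 scale with DSS and by -4.27 between the DSS + EA and DSS groups. *Gm4951* and *Ms4a4c*, with 3 counts or fewer in every control library, were above control in the DSS + EA mice by at least 14.5-fold and 30.4-fold.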
